A study of Gallus gallus with 20 samples.

Results

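The pectoralis major, the breast muscle, of male Ross 708 broiler chickens was compared at post-hatch day 35 between birds fed an L-methionine-deficient diet and birds fed a control diet with L-methionine. The 10 breast libraries, 5 from deficient and 5 from control birds, were chosen by tissue and diet in the labels out of 20 libraries in the series. The other 10 are livers of the same design, 5 deficient and 5 control, and serve here only to ask where the breast effect differed from that in liver. All groups were male, of the same breed and age, and ate the diets between weeks 3 and 5 of age. The labels count 5 treatment and 5 control birds, so the breast libraries were taken as separate birds. They do not say whether a breast and a liver library of equal number share a bird, and they give no batch, date, body weight or feed intake. Whether deficient birds ate or weighed less is therefore not known here.

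Breast muscle of broilers is a fast, glycolytic muscle. It holds large stores of glycogen and creatine phosphate, relies on glycolytic enzymes and adenylate kinase for bursts of ATP, and has few mitochondria and very few slow fibres. Methionine starts the synthesis of proteins and, as S-adenosylmethionine, gives the methyl group for creatine and the aminopropyl group for polyamines. Its sulfur passes through transsulfuration to cysteine, glutathione and taurine, and it is usually the first limiting amino acid of maize and soybean diets for chickens. Most gene roles named below were worked out in mammals.

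RNA abundance was deposited as FPKM, fragments per length of transcript and per amount of sequence, for 17108 genes and 17942 transcripts of galGal4. Values below are FPKM scaled between the 10 breast libraries by the median ratio to their geometric mean, given as mean ± SD over 5 libraries per diet or library by library in the order 1 to 5. FPKM are per length and may be compared between genes. Log2 changes are deficient minus control on the log2(FPKM + 1) scale, which understates the change of genes near or below 1 FPKM. Genes with limma p-values under 0.05 after Benjamini-Hochberg adjustment, taken over the whole table, are called, and "rose" or "fell" is used only of called genes. How many reads each library had is unknown. Coverage per unit of FPKM, a relative measure of depth, was 1.86 to 2.38 in deficient and 1.85 to 2.51 in control libraries. Genes at 1 FPKM or more in the deposited values, before scaling, numbered 9143 to 9962 in deficient and 10102 to 10589 in control libraries. The factors by which FPKM were then divided were 0.772 to 0.994 in deficient and 1.03 to 1.28 in control libraries. Scaling thus raised deficient and lowered control values, and these gene counts do not hold for scaled values.

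The markers of fast skeletal myocytes matched the label. The summed level of the 6 markers found ranged over 30340 to 50030 FPKM in deficient libraries and 17210 to 28600 FPKM in control libraries. 5 of the 6 rose, and 2 with quantile normalization. Leukocyte markers went the other way. Sums in this paragraph are over all markers found, and counts of calls over those tested, which averaged 1 FPKM or more. Markers found numbered 10 for heterophils, 9 for B cells, 11 for T and NK cells, 9 for fibroblasts and 10 for hepatocytes. The 10 macrophage markers found summed to 232.5 to 355.6 FPKM in deficient and 533.1 to 616 FPKM in control libraries, and 9 of them fell. Heterophil markers, of which 6 of 8 tested fell, summed to 67.45 to 450.8 FPKM in deficient and 477.2 to 1075 FPKM in control libraries. For B cells 4 of 5 fell (2 without control 3, deficient 3 or deficient 4), with sums of 8.18 to 23.74 FPKM in deficient and 28.01 to 45.24 FPKM in control libraries. Of 7 T and NK cell markers 3 fell, with sums of 39.02 to 50.9 FPKM in deficient and 61.01 to 95.47 FPKM in control libraries. Fibroblast markers fell in 3 of 8 cases (6 without scaling), with sums of 1156 to 1867 FPKM in deficient and 1818 to 2434 FPKM in control libraries. These overlapped, as did the sums of the remaining lists. They were 75.84 to 99.35 FPKM in deficient and 63.88 to 88.43 FPKM in control libraries for endothelial markers, 0 of 9 called. They were 25.73 to 39.61 FPKM in deficient and 20.77 to 33.37 FPKM in control libraries for satellite cell markers, 0 of 4 called, and 707 to 2613 FPKM in deficient and 1908 to 3220 FPKM in control libraries for hepatocyte genes, 3 of 4 lower. Of erythroid, smooth muscle and Schwann markers 0 of 4, 1 of 5 (higher) and 0 of 3 were called (without scaling and with quantile normalization 1 smooth muscle marker was lower and 0 higher), and of adipocyte markers 2 of 8 fell. No marker tested was at 0 in all libraries. In bulk tissue, fewer cells of a type and less RNA per cell cannot be told apart, and the part of cell composition in the results below was not tested.

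Many genes differed between the diets by small amounts. Of 10173 genes tested, 2854 (28.1%) were called, 1441 higher (14.2%) and 1413 lower (13.9%) in deficient birds. Changes of 2-fold or more were rarer: 81 genes rose (0.796%) and 204 fell (2.01%) by that much. In 1867 genes (18.4%) the values of the diets did not overlap, with the deficient libraries above in 8.9% and below in 9.46%. Calls also depended on the level. Among genes at 1 to 3 FPKM 3.36% rose and 16.3% fell, while among those at 100 FPKM and over 30.1% rose and 7.79% fell. Counts over the lists below are to be read against these shares, since muscle genes lie at high levels and leukocyte genes at low ones. Without scaling, the median log2 change of all genes was -0.248, against 0.02 with it, and 9.14% of calls were higher, against 50.5% with scaling. Directions below are therefore relative to the median gene. Without scaling 24 of the 123 called genes named below lost their call, all of them among those that rose: GYG1, PDK3, ADSSL1, MRPL40, MFN1, TNNC1, SCN4A, CASQ2, MYF6, GHR, RRAGD, RPTOR, EEF2K, BECN1, MAP1LC3A, CRY1, REV-ERBB, CTH, MSRB3, SMS, SC5D, COL15A1, LAMA2 and LPIN1. The 7 that gained a lower call were LDHB, TFAM, HSPA8, ATF4, AMD1, ODC1 and G0S2. Counts without scaling stand in brackets below where either moved by over 1.5 times. With quantile normalization the higher counts were 2 for fast filaments, 6 for excitation-contraction coupling, 9 for mTORC1, 17 for mitochondrial ribosomes, 5 for translation factors, 15 for complex I, 0 for mitochondrially encoded genes, 8 for chaperones, 4 for costameres and 2 for vessel and hypoxia genes, and the lower counts 5 for glycolysis, 2 for glycogen, 4 for methionine use and 2 for cell cycle. Other list counts that moved by over 1.5 times were of 2 genes or fewer under both settings. Without control 2, 1835 genes were called, and the higher calls numbered 842 without control 2, 928 without control 4 and 960 without deficient 4. The first principal component held 34.2% of the variance and separated the diets, with scores of 4.95 (deficient 5) to 39.9 (deficient 3) in deficient libraries and -34.6 to -13.6 in control libraries.

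**Figure D1:**
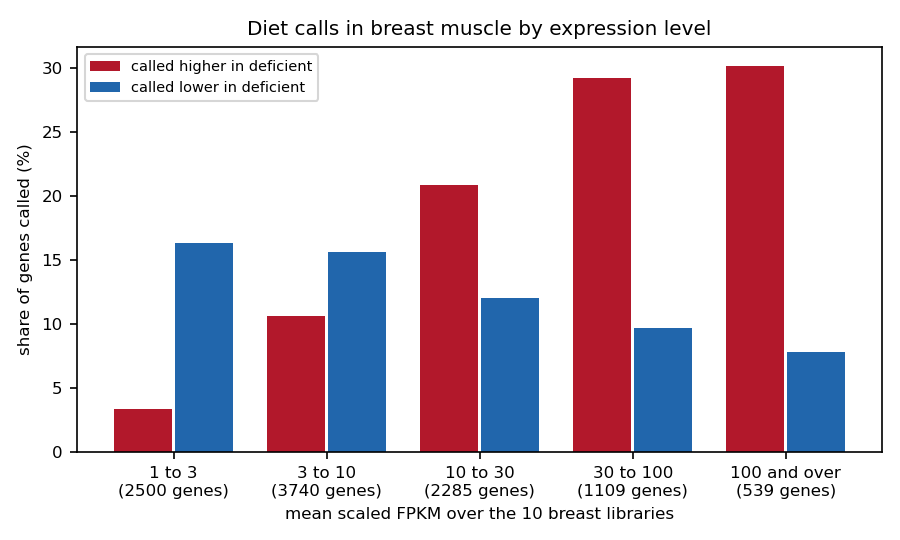
Share of genes called higher (red) and lower (blue) in deficient breast muscle, in percent, by mean scaled FPKM over the 10 libraries. Higher calls are 3.36% of genes at 1 to 3 FPKM and 30.1% at 100 FPKM and over, and lower calls 16.3% and 7.79%.

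**Figure D2:**
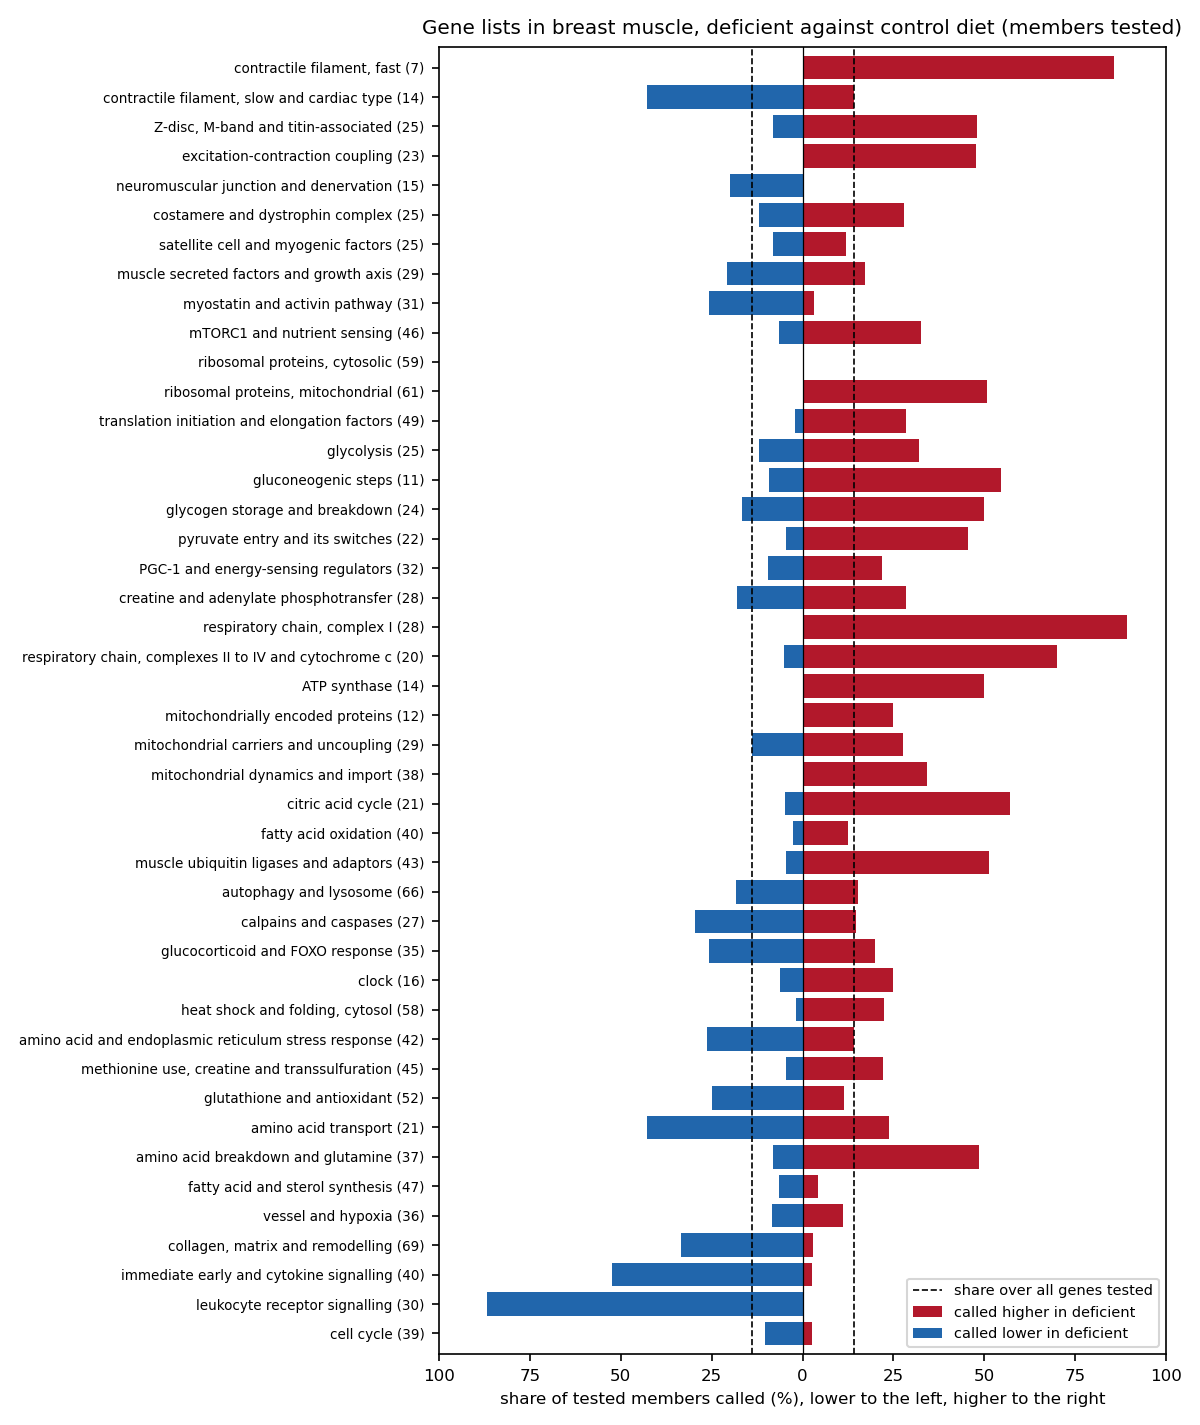
Share of the tested members of each of 44 gene lists that were called higher (red, to the right) or lower (blue, to the left) in deficient breast muscle, in percent, with the number tested in brackets. Dashed lines mark the shares over all genes tested, 14.2% higher and 13.9% lower, and the longest bars are those of respiratory complex I to the right and leukocyte receptor signalling to the left.

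Several muscle-type enzymes of glycolysis and glycogen use rose in deficient birds, while the isozymes of other tissues named below fell or did not pass the test. In the glycolysis list 8 rose and 3 fell of 25 tested (7 and 11 without scaling), and among enzymes of glycogen storage and breakdown 12 rose and 4 fell of 24 tested (5 and 5 without scaling). PFKM, the muscle phosphofructokinase that commits sugar to glycolysis, had 772, 999.99, 1437, 996 and 705 FPKM in the deficient libraries, against 509, 240.3, 623, 353 and 567 FPKM in the control libraries. The diets did not overlap, and the log2 change was 1.13 ± 0.27 (SE), adjusted p = 0.0132 in limma. PKM, the muscle pyruvate kinase (chr10:1079289-1096764), had 5916, 7045, 10018, 7708 and 4229 FPKM in the deficient libraries, against 3528, 1744, 4039, 2643 and 4099.97 FPKM in the control libraries. Its lowest deficient library, number 5, lay just above the highest control (log2 change 1.13, adjusted p = 0.014). With quantile normalization the PKM change was 0.74 (adjusted p = 0.0442) and that of TPI1 0.79 (adjusted p = 0.0427). TPI1, triosephosphate isomerase, rose by 1.19 on the log2 scale (adjusted p = 0.0166).

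Of the isozyme pairs described next, only FBP2 and FBP1 were both called, in opposite directions. ALDOC is given without a partner. LDHA, the muscle subunit of lactate dehydrogenase, averaged 13707 ± 3795 FPKM in deficient and 7174 ± 2369.8 FPKM in control libraries, a log2 change of 0.98, adjusted p = 0.0253. That call was lost when 1 library was left out, with adjusted p = 0.0531 without control 4, 0.0573 without deficient 3 and 0.0572 without deficient 4, and with quantile normalization, at 0.39 (adjusted p = 0.121). LDHB, the heart-type subunit, averaged 75 ± 23.2 FPKM in deficient and 109.7 ± 25.6 FPKM in control libraries and was not called (log2 change -0.56, adjusted p = 0.0706). It was called when the library nearest to the other diet was left out, with adjusted p = 0.0345 without control 3 and 0.0128 without deficient 5. ALDOC, the brain-type aldolase, had 32.5, 33.5, 29.98, 29.6 and 63.1 FPKM in the deficient libraries, against 76.4, 97.1, 91.3, 96.4 and 86 FPKM in the control libraries. Deficient 5 was far above the rest of its diet, yet below all controls, and the gene fell (log2 change -1.28, adjusted p = 0.00175). FBP2, the muscle fructose bisphosphatase (chrZ:41279376-41302319), had 302, 463, 622, 651 and 534 FPKM in the deficient libraries, against 199, 88.5, 196, 152 and 178 FPKM in the control libraries. All deficient libraries were above all controls (log2 change 1.66, adjusted p = 0.00222). FBP1, the liver-type enzyme, had 2.07, 2.22, 2.12, 2.38 and 5.54 FPKM in the deficient libraries, against 5.12, 6.4, 7.14, 5.78 and 3.91 FPKM in the control libraries. It fell (log2 change -0.83, adjusted p = 0.0165), although deficient 5 lay within the control range.

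Several other genes of glycogen storage rose. PPP1R3A, which tethers protein phosphatase 1 to muscle glycogen, averaged 37.5 ± 3.2 FPKM in deficient and 20.6 ± 5.55 FPKM in control libraries without overlap (log2 change 0.87, adjusted p = 0.00471). NHLRC1, the ligase malin that limits glycogen synthesis, averaged 5.76 ± 1.23 FPKM in deficient and 2.49 ± 0.391 FPKM in control libraries (log2 change 0.95, adjusted p = 0.00153). Glycogenin GYG1, the primer of new glycogen, averaged 144 ± 13.2 FPKM in deficient and 99.9 ± 10.2 FPKM in control libraries (log2 change 0.52, adjusted p = 0.00533, and 0.33 with quantile normalization). PYGL, the liver-type phosphorylase, had 2.53, 2.91, 2.93, 2.29 and 2.65 FPKM in the deficient libraries, against 3.68, 4.15, 3.9, 4.46 and 4.04 FPKM in the control libraries. It fell without overlap (log2 change -0.46, adjusted p = 0.00291), at a level far below that of the muscle genes. The count of 12 higher genes in the glycogen list was 7 without deficient 4.

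In the list of pyruvate entry and its switches, 10 rose and 1 fell of 22 tested (3 and 3 without scaling). It also holds genes of fatty acid metabolism, which include MLYCD and LPIN1 among the 10 and the 1 that fell. Subunits of the pyruvate dehydrogenase complex, its activator PDP1 and an inhibitory kinase, PDK3, were among the 10. DLD, the E3 subunit, averaged 64.7 ± 14.3 FPKM in deficient and 36.3 ± 5.99 FPKM in control libraries (log2 change 0.81, adjusted p = 0.00575), and PDP1, the phosphatase that switches the complex on, 35.7 ± 7.51 FPKM in deficient and 19.8 ± 6.69 FPKM in control libraries (log2 change 0.86, adjusted p = 0.0176). MLYCD, which destroys malonyl-CoA and so frees fatty acid import, averaged 9.55 ± 1.76 FPKM in deficient and 5.45 ± 0.461 FPKM in control libraries (log2 change 0.697, adjusted p = 0.00257). PDK3, a kinase that switches the complex off, averaged 51.2 ± 8.19 FPKM in deficient and 34.6 ± 4.45 FPKM in control libraries (log2 change 0.55, adjusted p = 0.0112). PDK4, another such kinase, had 152, 189, 278, 143 and 268 FPKM in the deficient libraries, against 49.1, 138, 80.9, 119 and 197 FPKM in the control libraries. It was not called (log2 change 0.91, adjusted p = 0.0691), and was called with adjusted p = 0.0286 without control 5, the highest control library, and with 0.0482 when blocked by replicate number.

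**Figure D3:**
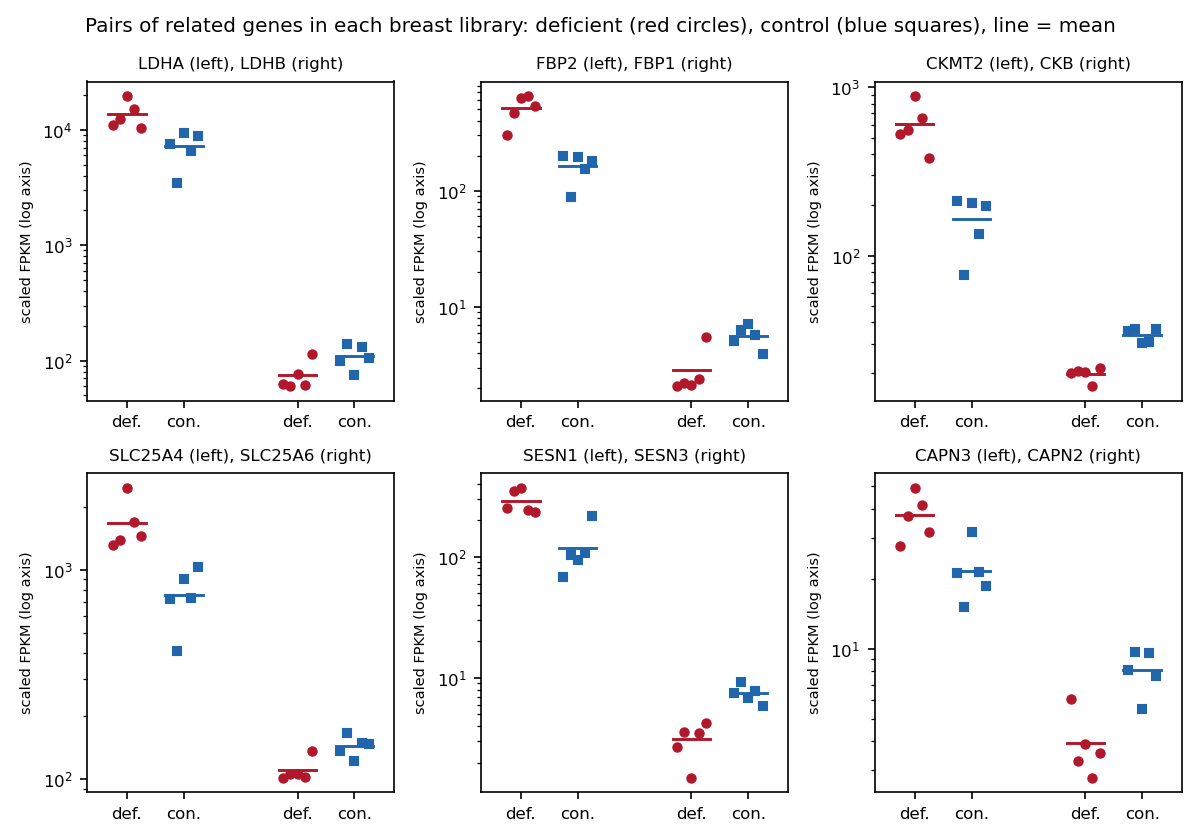
Scaled FPKM on a log axis of 6 pairs of related genes in each library, deficient (red circles) left of control (blue squares), with a line at each mean. The left gene of each pair was higher and the right gene lower in deficient birds, with no overlap between diets for LDHA, FBP2, CKMT2, CKB, SLC25A4, SESN1 and SESN3. Deficient 5 lies inside the control range for FBP1 and SLC25A6 (the model on chromosome 1), and LDHB was not called.

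Among the genes named here that buffer ATP, several muscle forms rose and several forms of other tissues fell. In the list of creatine and adenylate phosphotransfer 8 rose and 5 fell of 28 tested (6 and 10 without scaling). Shares with scaling were 28.6% and 17.9%, against 14.2% and 13.9% over all genes. Among genes at 100 FPKM and over they were 30.1% and 7.79%. CKMT2, creatine kinase of sarcomeric mitochondria (chrZ:63574949-63597283), had 527, 554, 888, 659 and 379 FPKM in the deficient libraries, against 211, 76.9, 204, 135 and 198 FPKM in the control libraries. The lowest deficient library was well above the highest control, and the log2 change was 1.895 ± 0.299 (SE), adjusted p = 0.00227. CKB, the brain-type cytosolic creatine kinase, had 20.1, 20.7, 20.3, 16.7 and 21.5 FPKM in the deficient libraries, against 35.6, 36.6, 30.2, 30.5 and 36.4 FPKM in the control libraries. It fell with no overlap (log2 change -0.74, adjusted p = 0.00131). CKMT1A, the mitochondrial form of other tissues, averaged 1.58 ± 1.27 FPKM in deficient and 4.11 ± 1.48 FPKM in control libraries and fell (log2 change -1.07, adjusted p = 0.0233). That call was lost with adjusted p = 0.0568 without control 4, 0.056 without deficient 3 and 0.0574 without deficient 4.

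Genes of adenine nucleotide turnover differed. AK1, adenylate kinase, averaged 4556 ± 1556 FPKM in deficient and 2154 ± 600.4 FPKM in control libraries (log2 change 1.06, adjusted p = 0.0145). AMPD1, the muscle AMP deaminase, had 264, 307, 557, 367 and 256 FPKM in the deficient libraries, against 162, 94.2, 207, 116 and 148 FPKM in the control libraries. The diets did not overlap (log2 change 1.25, adjusted p = 0.0058). ADSSL1, the muscle adenylosuccinate synthase of the purine nucleotide cycle, averaged 107 ± 10.8 FPKM in deficient and 55.8 ± 26.4 FPKM in control libraries (log2 change 1.06, adjusted p = 0.0204), with adjusted p = 0.0516 without control 2. ADSS, the synthase of other tissues, averaged 12.8 ± 1.37 FPKM in deficient and 16.5 ± 1.16 FPKM in control libraries and fell without overlap (log2 change -0.34, adjusted p = 0.0165). ADSL, the lyase of that cycle, averaged 598 ± 156 FPKM in deficient and 382 ± 84.8 FPKM in control libraries and was not called (log2 change 0.63, adjusted p = 0.0505), but was called with adjusted p = 0.048 without control 4 and 0.0128 without deficient 1 and with 0.0407 when blocked by replicate number. AMPD3, another AMP deaminase, averaged 20.4 ± 3.47 FPKM in deficient and 17.1 ± 3.16 FPKM in control libraries (log2 change 0.25, adjusted p = 0.217, not called), with a sign that turned without scaling. SLC25A4, the ATP/ADP exchanger of muscle mitochondria, had 1316, 1389.6, 2467, 1693 and 1446 FPKM in the deficient libraries, against 721, 409.9, 905, 729 and 1024 FPKM in the control libraries. It rose with no overlap (log2 change 1.16, adjusted p = 0.00843). SLC25A6, the exchanger of other tissues, is the symbol of a pair of gene models. The more abundant one, on chromosome 1, averaged 109.8 ± 14.3 FPKM in deficient and 144 ± 15.9 FPKM in control libraries and fell by a log2 change of -0.39, adjusted p = 0.0282, a call that was lost without control 2, control 4, control 5, deficient 1, deficient 2, deficient 3 and deficient 4 (adjusted p 0.0537 to 0.0714). The one on chromosome 4 averaged 26.4 ± 3.69 FPKM in deficient and 43.3 ± 5.72 FPKM in control libraries and fell without overlap (log2 change -0.69, adjusted p = 0.00325). Reads of near-identical exchangers may have been shared between models, so their split is uncertain. SLC6A8, the creatine importer, averaged 159.5 ± 64.7 FPKM in deficient and 108 ± 17.6 FPKM in control libraries and was not called (log2 change 0.46, adjusted p = 0.26). Deficient 1 was the lowest of all 10 libraries, and without it the gene was called with adjusted p = 0.0138. GAMT, which makes creatine with a methyl group from methionine, averaged 106 ± 46.2 FPKM in deficient and 66.6 ± 17.5 FPKM in control libraries (log2 change 0.601, adjusted p = 0.147, not called). The count of 5 lower genes was 3 without control 2, 2 without control 4, 3 without control 5, 3 without deficient 2 and 3 without deficient 3. ADSS, CKMT1A and SLC25A6 were named after their values were seen.

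Many nuclear genes of mitochondria were called higher with scaling, by small amounts, and few without it. Of the mitochondrial ribosomal proteins, 31 rose and 0 fell of 61 tested (2 and 0 without scaling), with a median log2 change of 0.373 against 0.02 over all genes. Log2 changes in this list ran between 0.05 and 0.76. MRPS31, a small subunit protein, had 76.1, 79.1, 104, 84.7 and 77.6 FPKM in the deficient libraries, against 49.7, 44.1, 49, 47.5 and 55.7 FPKM in the control libraries. All deficient libraries exceeded all controls (log2 change 0.76, adjusted p = 0.00158). MRPL40, of the large subunit, averaged 87.8 ± 15.9 FPKM in deficient and 57.7 ± 3.45 FPKM in control libraries (log2 change 0.58, adjusted p = 0.00696, and 0.36 with quantile normalization). Cytosolic ribosomal proteins differed: 0 rose and 0 fell of 59 tested (0 and 2 without scaling) (median 0.117), and 2 of the 59 unadjusted p-values from limma were under 0.05. Leaving out deficient 1 gave 2 higher calls, and leaving out deficient 5 gave 1 lower call.

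Complex I gave the highest share of any mitochondrial list, as 25 rose and 0 fell of 28 tested (4 and 0 without scaling), with a median of 0.488. In complexes II to IV 14 rose and 1 fell of 20 tested (4 and 3 without scaling). The 1 that fell was COX8A, a cytochrome oxidase subunit named after its value was seen, at 70.9 ± 16.4 FPKM in deficient and 109 ± 16.6 FPKM in control libraries (log2 change -0.63, adjusted p = 0.0149). Of ATP synthase subunits 7 rose and 0 fell of 14 tested (0 and 0 without scaling). Of the genes encoded in the mitochondrion itself 3 rose and 0 fell of 12 tested (0 and 0 without scaling), with a median of 0.424. The mitochondrial share of all FPKM was 15.9% to 22.9% in deficient and 14.1% to 17.1% in control libraries. Failed estimates count as 0 in these totals. GAPDH failed in 5 deficient and 2 control libraries and had 35062 to 66432 FPKM in the other controls. ACTA1 failed in deficient 3. The totals are therefore not alike between diets, and the shares cannot be compared strictly. These counts moved when single libraries were left out. For complex I the higher calls were 14 without control 1, 13 without control 2, 14 without control 4 and 13 without deficient 4. For the mitochondrial ribosome they were 15 without control 2, 19 without control 3, 16 without control 4, 20 without deficient 3 and 14 without deficient 4. For ATP synthase they were 4 without control 1, 4 without control 2 and 4 without deficient 4. For the mitochondrially encoded genes they were 0 without control 1, 0 without control 2, 0 without control 4, 1 without deficient 1, 0 without deficient 3, 0 without deficient 4 and 6 without deficient 5.

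Some inner membrane carriers changed by more than these genes. UCP, the avian uncoupling protein (chr1:194821404-194824338), had 374, 428, 629, 504 and 349 FPKM in the deficient libraries, against 114, 181, 188, 206 and 269 FPKM in the control libraries. The lowest deficient library was above the highest control (log2 change 1.27 ± 0.23 (SE), adjusted p = 0.00366). SLC25A33, a pyrimidine nucleotide carrier (chr21:3398304-3417478), averaged 16.9 ± 3.45 FPKM in deficient and 6.52 ± 1.72 FPKM in control libraries (log2 change 1.26, adjusted p = 0.00162). SLC25A12, the aspartate/glutamate carrier of the malate shuttle, averaged 62.7 ± 11.2 FPKM in deficient and 29.1 ± 9.11 FPKM in control libraries (log2 change 1.13, adjusted p = 0.00518). Over the whole list of carriers 8 rose and 4 fell of 29 tested (5 and 8 without scaling). Shares with scaling were 27.6% and 13.8%, against 14.2% and 13.9% over all genes. For import and dynamics, 13 rose and 0 fell of 38 tested (2 and 4 without scaling). HSPA9, the import motor of the matrix, averaged 73.3 ± 12.1 FPKM in deficient and 44.9 ± 4.71 FPKM in control libraries (log2 change 0.69, adjusted p = 0.00408), and MFN1, an outer membrane fusion protein, 25.4 ± 2.26 FPKM in deficient and 16.9 ± 3.24 FPKM in control libraries (log2 change 0.57, adjusted p = 0.00821). TFAM, which packages and transcribes mitochondrial DNA, had 17.1, 16, 17.1, 17.3 and 17.6 FPKM in the deficient libraries, against 16.9, 17.6, 17.6, 17.8 and 17.2 FPKM in the control libraries. The diets overlapped and differed by -0.03 on the log2 scale (adjusted p = 0.749). Of the carriers the higher count was 5 without control 2, and the lower count was 2 without control 2, 2 without control 4 and 2 without deficient 4. Of import genes the higher count was 8 without control 2 and 8 without control 4. In the fatty acid oxidation list 5 rose and 1 fell of 40 tested (2 and 4 without scaling). With scaling that is 12.5% and 2.5%, against 14.2% and 13.9% over all genes. The list had a median log2 change of 0.252, against 0.02 over all genes. Its higher count was 3 without control 2 and 8 without deficient 1.

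Most fast filament genes rose in deficient birds, and several slow or cardiac-type ones fell, though not in deficient 5. Of fast filament genes, 6 rose and 0 fell of 7 tested. Of slow and cardiac-type genes, 2 rose and 6 fell of 14 tested (1 and 8 without scaling). MYL1, the fast myosin light chain, averaged 23977 ± 5795 FPKM in deficient and 14039 ± 2936 FPKM in control libraries (log2 change 0.77, adjusted p = 0.0167). TNNT3, fast troponin T, averaged 13603 ± 3087 FPKM in deficient and 7831 ± 1681 FPKM in control libraries (log2 change 0.797, adjusted p = 0.0132), and TNNC2, fast troponin C, 8853 ± 1253 FPKM in deficient and 5542 ± 867 FPKM in control libraries (log2 change 0.68, adjusted p = 0.00847). With quantile normalization both calls were lost, at 0.22 (adjusted p = 0.105) for TNNT3 and 0.13 (adjusted p = 0.479) for TNNC2. MYL2, the slow and cardiac light chain, had 0.455, 1.45, 0.915, 1.07 and 8.65 FPKM in the deficient libraries, against 8.24, 12.1, 9.68, 11.9 and 8.18 FPKM in the control libraries. Deficient 5 was in the control range, and the other 4 deficient libraries were below every control (log2 change -2.03, adjusted p = 0.00706). Without deficient 5 the change was -2.49.

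Troponins of slow and cardiac type had the same split between deficient libraries. TNNT2, cardiac troponin T, had 7.16, 18.4, 15.1, 13.4 and 75 FPKM in the deficient libraries, against 64.9, 94.9, 42.1, 102 and 49.9 FPKM in the control libraries. TNNI1, slow troponin I, had 1.41, 10.4, 6.72, 8.13 and 36.9 FPKM in the deficient libraries, against 27.5, 49.3, 19.95, 63.8 and 19.2 FPKM in the control libraries. In both, deficient 5 was above some controls. TNNT2 fell by a log2 change of -1.798, adjusted p = 0.0232, and the call was lost without control 2, control 4, deficient 3 and deficient 4 (adjusted p 0.0537 to 0.0584). TNNI1 fell by a log2 change of -1.81, adjusted p = 0.0476. Its call was lost without control 1, control 2, control 3, control 4, control 5, deficient 1, deficient 2, deficient 3 and deficient 4 (adjusted p 0.0524 to 0.107), and without deficient 5 the change was -2.32. PVALB, the calcium buffer parvalbumin, ranged over 5.90 to 254 FPKM in deficient and 23.1 to 130.4 FPKM in control libraries (log2 change -1.098, adjusted p = 0.356, not called). Its highest value was again deficient 5, and without it PVALB was called at -1.92 (adjusted p = 0.0204). CSRP3, muscle LIM protein, averaged 4.64 ± 4.9 FPKM in deficient and 11.9 ± 11.6 FPKM in control libraries and was not called (log2 change -1.36, adjusted p = 0.13). Without deficient 5 its adjusted p was 0.0463. The lower count of the slow list was 3 without control 2 and 10 without deficient 5. As medians over that list, relative to the control mean of each gene, deficient libraries lay at -1.387, -0.563, -1.043, -1.268 and 0.203, and controls between -0.272 and 0.277.

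A pair of members rose in the slow list. TNNC1, troponin C of slow and cardiac muscle, averaged 8065 ± 2877 FPKM in deficient and 4387 ± 1618 FPKM in control libraries (log2 change 0.87, adjusted p = 0.0484) and lost its call without control 2, control 3, control 4, control 5, deficient 2, deficient 3 and deficient 4 (adjusted p 0.0739 to 0.115), and with quantile normalization at 0.47 (adjusted p = 0.144). The model listed as MYH6 (chr18:538723-561401) had 1713, 2018, 2187, 2259 and 1142 FPKM in the deficient libraries, against 935, 373, 1018, 509 and 785 FPKM in the control libraries. It rose without overlap (log2 change 1.42, adjusted p = 0.00656). Myosin heavy chain genes are close copies of each other, and reads may have been split between models, so this value is uncertain. The model moved in the direction of the fast filament genes. Whether it is of cardiac type, as its symbol and its place in the slow list have it, was not tested. The TNNC1 model also moved with the fast genes, at a level near that of TNNC2 and far above those of TNNT2 and TNNI1. Whether the TNNC1 model is of slow type was not tested either.

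Some structural and membrane genes of the fibre rose too. In the Z-disc and M-band list 12 rose and 2 fell of 25 tested (8 and 6 without scaling). ACTN2, a cross-linker of thin filaments at the Z-disc, averaged 881 ± 94.3 FPKM in deficient and 448 ± 83.9 FPKM in control libraries (log2 change 0.99, adjusted p = 0.00162). LMOD2, a leiomodin that lengthens thin filaments, named after its values were seen, had 0.287, 1.16, 1.18, 0.675 and 2.66 FPKM in the deficient libraries, against 4.78, 7.63, 3.15, 5.58 and 2.69 FPKM in the control libraries. It was 1 of the 2 that fell (log2 change -1.42, adjusted p = 0.00677). Of genes for excitation-contraction coupling, 11 rose and 0 fell of 23 tested (4 and 1 without scaling). CLCN1, the chloride channel that keeps the resting fibre quiet, had 5.54, 6.2, 6.3, 5.16 and 5.91 FPKM in the deficient libraries, against 3.17, 2.13, 3.69, 1.99 and 2.88 FPKM in the control libraries. All deficient libraries exceeded all controls (log2 change 0.87, adjusted p = 0.00165). SCN4A, the sodium channel of the action potential, averaged 9.99 ± 1.14 FPKM in deficient and 6.57 ± 1.14 FPKM in control libraries (log2 change 0.55, adjusted p = 0.00707). CACNA1S, the voltage sensor, averaged 69.5 ± 10.4 FPKM in deficient and 44 ± 8.4 FPKM in control libraries (log2 change 0.66, adjusted p = 0.00926), and TRDN, triadin of the junction, 127 ± 8.56 FPKM in deficient and 78.4 ± 11.4 FPKM in control libraries (log2 change 0.69, adjusted p = 0.00233). RYR3, which birds use beside the main calcium release channel, averaged 21 ± 4.1 FPKM in deficient and 11.3 ± 2.82 FPKM in control libraries (log2 change 0.85, adjusted p = 0.00941). Calcium-binding CASQ2 averaged 1225 ± 226 FPKM in deficient and 817 ± 93.9 FPKM in control libraries (log2 change 0.57, adjusted p = 0.015), with 0.32 (adjusted p = 0.101) after quantile normalization. The coupling count was 7 without control 1, 6 without control 2 and 7 without control 4.

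Few genes linked to denervated or immature fibres were called. In the list of neuromuscular junction and denervation 0 rose and 3 fell of 15 tested (0 and 9 without scaling), and log2 changes in the list ran between -1.32 and 0.34. With scaling these are 0% and 20%, against 14.2% and 13.9% over all genes, and 1 gene rose with quantile normalization. CHRNG, the embryonic acetylcholine receptor subunit, had 5.85, 9.46, 12.3, 6.42 and 24.2 FPKM in the deficient libraries, against 18.8, 40.3, 15.8, 44.1 and 27.5 FPKM in the control libraries. It fell (log2 change -1.32, adjusted p = 0.0256), with a call lost without control 2, control 4, deficient 1 and deficient 4 (adjusted p 0.0521 to 0.065). RUNX1, induced in denervated muscle of mice, averaged 1.12 ± 0.56 FPKM in deficient and 3.72 ± 1.09 FPKM in control libraries and fell without overlap (log2 change -1.16, adjusted p = 0.00336). NCAM1, an adhesion molecule of immature and denervated fibres, averaged 11.2 ± 1.998 FPKM in deficient and 17.8 ± 3.66 FPKM in control libraries (log2 change -0.62, adjusted p = 0.0106). Among myogenic factors 3 rose and 2 fell of 25 tested (1 and 5 without scaling), or 12% and 8% with scaling. MYF6, the factor of mature fibres, averaged 30.5 ± 7.34 FPKM in deficient and 19.9 ± 2.2 FPKM in control libraries (log2 change 0.57, adjusted p = 0.0142), and MYOD1 averaged 60.2 ± 21 FPKM in deficient and 45.3 ± 3.54 FPKM in control libraries (log2 change 0.34, adjusted p = 0.213, not called). RUNX1 and NCAM1 are also expressed outside the fibre.

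**Figure D4:**
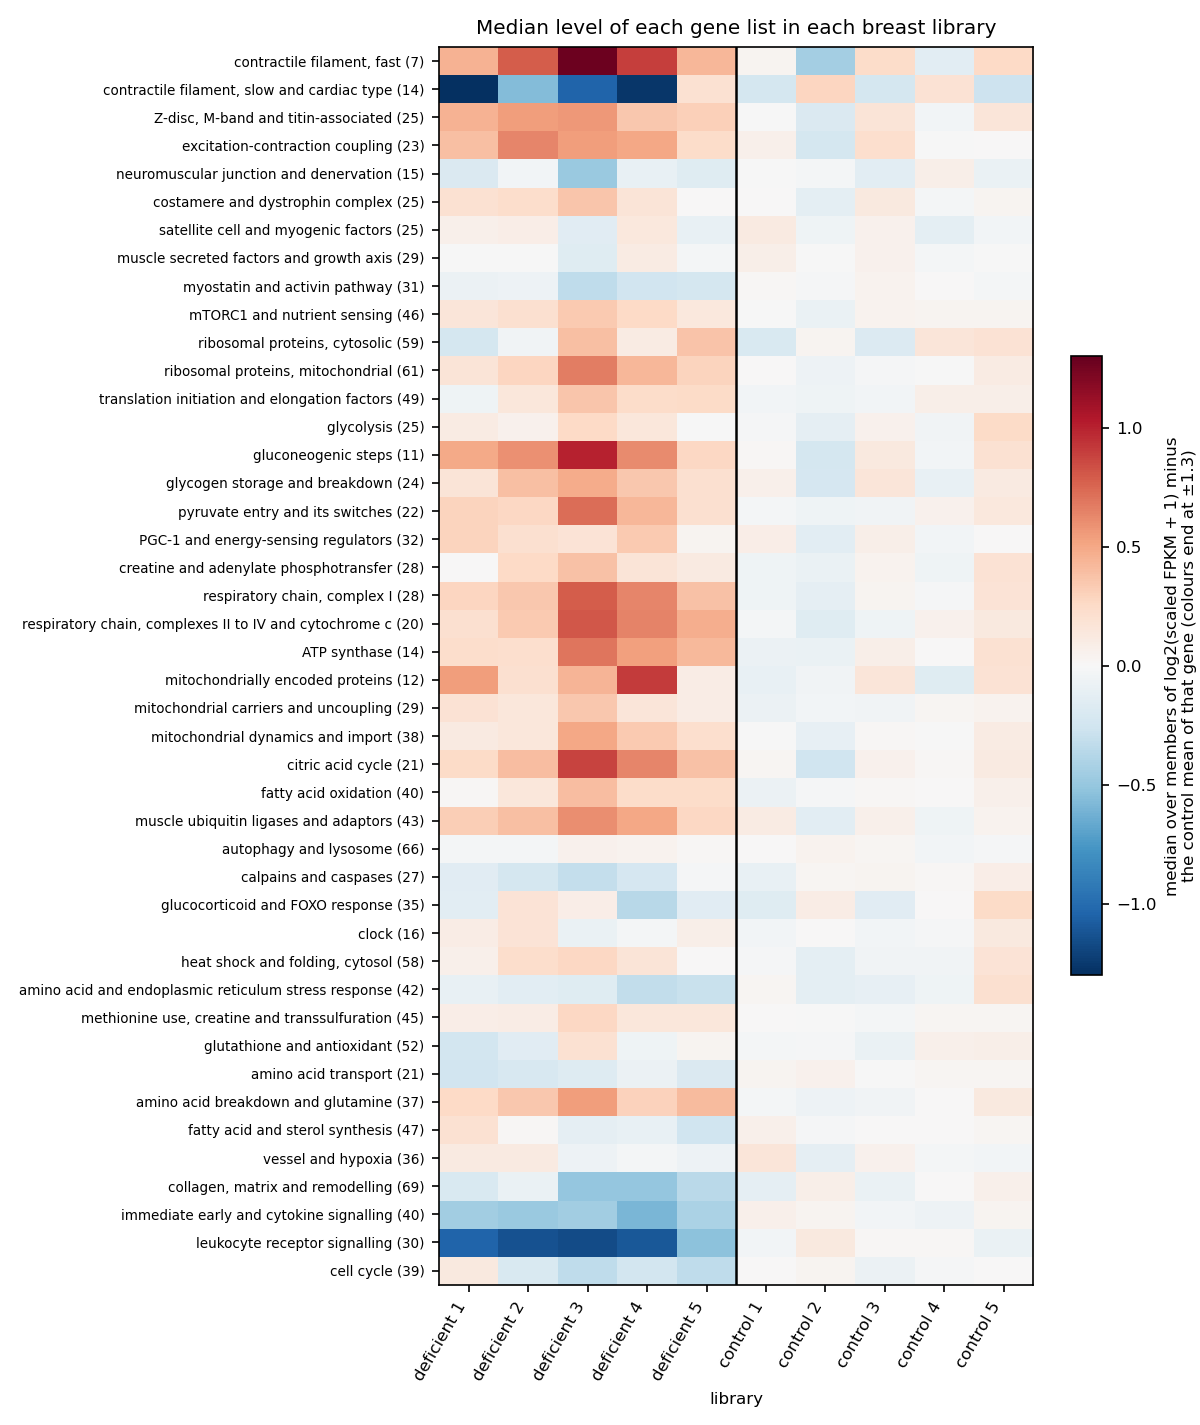
Median level of each gene list in each library, deficient 1 to 5 left of control 1 to 5, as log2(scaled FPKM + 1) minus the control mean of each gene; the number of genes is in brackets. The slow filament list is at 0.203 in deficient 5 and between -1.387 and -0.563 in the other deficient libraries.

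Some genes of growth signals were called, in both directions. Myostatin, listed as GDF8, had 27, 40.7, 26.1, 36.2 and 26 FPKM in the deficient libraries, against 42.1, 23.9, 19.1, 29.97 and 40.4 FPKM in the control libraries. The diets overlapped throughout (log2 change 0.04, adjusted p = 0.912), and the sign turned with the scaling. Follistatin, FST, its antagonist, averaged 8.08 ± 3.4 FPKM in deficient and 5.24 ± 1.7 FPKM in control libraries (log2 change 0.51, adjusted p = 0.164, not called). Over the myostatin and activin list 1 rose and 8 fell of 31 tested (1 and 16 without scaling). With scaling these are 3.23% and 25.8%, against 14.2% and 13.9% over all genes. TGFBR2, the type II receptor of TGF-beta, averaged 10.01 ± 1.64 FPKM in deficient and 18.2 ± 3.31 FPKM in control libraries and fell without overlap (log2 change -0.796, adjusted p = 0.00315). SMAD1, the 1 that rose and a mediator of bone morphogenetic proteins, averaged 21.8 ± 3.77 FPKM in deficient and 12.8 ± 1.95 FPKM in control libraries (log2 change 0.72, adjusted p = 0.00506). The lower count was 4 without control 2, 5 without control 3, 5 without control 4, 5 without control 5, 5 without deficient 3 and 5 without deficient 4.

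In the list of secreted factors and the growth axis, 5 rose and 6 fell of 29 tested (1 and 9 without scaling). With scaling these shares, 17.2% and 20.7%, were near the 14.2% and 13.9% over all genes. GHR, the growth hormone receptor, averaged 21.8 ± 3.5 FPKM in deficient and 14.3 ± 2.49 FPKM in control libraries without overlap (log2 change 0.58, adjusted p = 0.0132). IGF-I itself had 1.27, 1.76, 2.54, 3.98 and 5.22 FPKM in the deficient libraries, against 2.53, 1.87, 1.85, 2.39 and 2.04 FPKM in the control libraries. Values were spread more widely among deficient than control libraries, and the gene was not called (log2 change 0.24, adjusted p = 0.482). IGFBP4, a binding protein that holds IGF from its receptor (chr27:4442295-4446537), had 39.4, 60.2, 51.5, 42.3 and 53.5 FPKM in the deficient libraries, against 105, 126, 95.2, 137 and 92.2 FPKM in the control libraries. The gene fell without overlap (log2 change -1.15 ± 0.15 (SE), adjusted p = 0.00131). IGFBP5 averaged 10.1 ± 1.93 FPKM in deficient and 14.9 ± 1.24 FPKM in control libraries (log2 change -0.53, adjusted p = 0.0101). GRB10, an adaptor that dampens insulin receptor signalling, averaged 9.32 ± 2.53 FPKM in deficient and 4.91 ± 0.497 FPKM in control libraries (log2 change 0.77, adjusted p = 0.00886). The higher count was 3 without control 2, 3 without control 4 and 3 without deficient 2.

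In the list of mTORC1 and nutrient sensing 15 rose and 3 fell of 46 tested (2 and 5 without scaling). Sestrins hold the complex off when amino acids are short. SESN1 (chr3:66547544-66556746) had 252, 346, 371, 240.4 and 232 FPKM in the deficient libraries, against 68.3, 102, 93.6, 107 and 215 FPKM in the control libraries. Control 5 was well above the other controls and still below all deficient libraries (log2 change 1.37 ± 0.27 (SE), adjusted p = 0.00532). SESN2 averaged 17.9 ± 5.9 FPKM in deficient and 9.58 ± 2.1 FPKM in control libraries (log2 change 0.804, adjusted p = 0.0163). SESN3 went the other way, with 2.7, 3.58, 1.5, 3.54 and 4.27 FPKM in the deficient libraries, against 7.45, 9.32, 6.77, 7.88 and 5.91 FPKM in the control libraries. It fell with no overlap (log2 change -1.07, adjusted p = 0.00336). RRAGD, a Rag GTPase that brings mTORC1 to the lysosome, averaged 50.1 ± 9.24 FPKM in deficient and 32.1 ± 3.72 FPKM in control libraries (log2 change 0.61, adjusted p = 0.0103), and RPTOR, the scaffold of the complex, 4.92 ± 0.374 FPKM in deficient and 3.69 ± 0.357 FPKM in control libraries (log2 change 0.34, adjusted p = 0.0109). EEF2K, which brakes elongation, averaged 17.5 ± 2.72 FPKM in deficient and 11.6 ± 2.25 FPKM in control libraries (log2 change 0.56, adjusted p = 0.0151). EIF4EBP1, the brake on cap-dependent initiation, averaged 812 ± 107 FPKM in deficient and 613 ± 112 FPKM in control libraries and was not called (log2 change 0.41, adjusted p = 0.0548), but was called with adjusted p = 0.0391 without control 5 and 0.0495 without deficient 1, and with 0.0434 when blocked by replicate number. Of translation factors 14 rose and 1 fell of 49 tested (2 and 8 without scaling). PABPC4, a poly(A)-binding protein, averaged 112 ± 21.8 FPKM in deficient and 60.6 ± 11.9 FPKM in control libraries (log2 change 0.88, adjusted p = 0.00448), and EIF2S2, the beta subunit of eIF2, 102 ± 13.5 FPKM in deficient and 65.5 ± 8.71 FPKM in control libraries (log2 change 0.64, adjusted p = 0.00512, and 0.42 with quantile normalization). The higher count of the mTORC1 list was 8 without control 2, 8 without control 4, 8 without deficient 3 and 8 without deficient 4. That of translation factors was 9 without control 1, 7 without control 2, 9 without control 3, 7 without control 4 and 7 without deficient 4.

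Several ubiquitin ligases of the fibre rose. Some lysosomal hydrolases fell, though calls in their list were near the shares over all genes. In the list of muscle ubiquitin ligases and adaptors, 22 rose and 2 fell of 43 tested (13 and 3 without scaling) (median 0.439). The list also holds conjugating enzymes, deubiquitinases and SMOX, which oxidises spermine and is among the 2 that fell. FBXO40, a muscle ligase that in mice targets the insulin receptor substrate (chr1:76342956-76354161), had 21, 21.3, 30.9, 27.9 and 18.7 FPKM in the deficient libraries, against 11.5, 5.44, 12.3, 7.71 and 8.37 FPKM in the control libraries. The diets did not overlap (log2 change 1.34 ± 0.204 (SE), adjusted p = 0.00195). ASB11, a cullin adaptor, averaged 6.21 ± 2.17 FPKM in deficient and 2.35 ± 0.663 FPKM in control libraries (log2 change 1.07, adjusted p = 0.00725). KLHL31, a Kelch protein of the sarcomere (chr3:87554345-87560990), averaged 116 ± 21.4 FPKM in deficient and 55 ± 15.3 FPKM in control libraries (log2 change 1.09, adjusted p = 0.00415). The wasting ligases TRIM63 and FBXO32 rose by 1.14 and 1.09 on the log2 scale (adjusted p = 0.00909 and 0.0132). CBLB, a ligase that dampens receptor signalling and is also strong in lymphocytes, averaged 1.21 ± 0.241 FPKM in deficient and 2.45 ± 0.463 FPKM in control libraries and fell (log2 change -0.64, adjusted p = 0.00394). UBB, polyubiquitin, averaged 4232 ± 1331 FPKM in deficient and 2124 ± 278 FPKM in control libraries (log2 change 0.95, adjusted p = 0.0068), with the reservation that polyubiquitin genes hold repeated, near-identical units.

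In the autophagy and lysosome list 10 rose and 12 fell of 66 tested (1 and 27 without scaling). With scaling that is 15.2% and 18.2%, close to the 14.2% and 13.9% over all genes. BECN1 and MAP1LC3A, named after their values were seen, act in forming autophagosomes. BECN1 had 19.8, 19.7, 19.4, 20.3 and 19.4 FPKM in the deficient libraries, against 17.5, 16, 16.4, 14.2 and 13.7 FPKM in the control libraries, a log2 change of 0.33, adjusted p = 0.0133, a call lost with quantile normalization. MAP1LC3A averaged 161 ± 25.3 FPKM in deficient and 106 ± 21.2 FPKM in control libraries (log2 change 0.599, adjusted p = 0.017), with 0.38 (adjusted p = 0.0446) after quantile normalization. Of the 12 that fell most were proteins of the lysosome itself. CTSB, cathepsin B, averaged 185 ± 28 FPKM in deficient and 327 ± 36.9 FPKM in control libraries (log2 change -0.83, adjusted p = 0.00205), and CTSK, cathepsin K, 75.4 ± 16.2 FPKM in deficient and 178 ± 50.4 FPKM in control libraries (log2 change -1.21, adjusted p = 0.00253). PSAP, the saposin precursor, averaged 187 ± 10.05 FPKM in deficient and 268 ± 13.8 FPKM in control libraries (log2 change -0.51, adjusted p = 0.00245). Macrophages are also rich in these hydrolases, and the part of cell composition in these falls was not tested. The count of 10 higher genes was 6 without control 2, 6 without control 4 and 6 without deficient 1. Calpains split. CAPN3, the muscle calpain, averaged 37.5 ± 8.45 FPKM in deficient and 21.6 ± 6.15 FPKM in control libraries (log2 change 0.78, adjusted p = 0.0151), while the ubiquitous CAPN2 averaged 3.92 ± 1.28 FPKM in deficient and 8.12 ± 1.72 FPKM in control libraries (log2 change -0.902, adjusted p = 0.00575). CASP18, an initiator caspase of birds (chr7:10936136-10944290), had 1.13, 1.45, 1.26, 1.09 and 1.15 FPKM in the deficient libraries, against 3.19, 3.71, 2.94, 3.69 and 4.27 FPKM in the control libraries. Within each diet the values lay close together, and the diets were well apart (log2 change -1.04 ± 0.097 (SE), adjusted p = 0.000428). CASP8, which starts death receptor apoptosis, averaged 3.01 ± 0.395 FPKM in deficient and 4.43 ± 0.228 FPKM in control libraries (log2 change -0.44, adjusted p = 0.00435). In the list of calpains and caspases, which also holds other apoptosis genes, 4 rose and 8 fell of 27 tested (2 and 17 without scaling). CAPN3 was the only calpain or caspase among the 4, and the 8 were also not all calpains or caspases. The lower count was 5 without control 5 and 5 without deficient 4.

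Stress and hormone responses followed no common direction. KLF9, a direct target of the glucocorticoid receptor, had 29.2, 35.2, 27.7, 30.03 and 18.3 FPKM in the deficient libraries, against 12.1, 12.5, 9.96, 12.6 and 21.9 FPKM in the control libraries. It rose (log2 change 0.99, adjusted p = 0.00719), with deficient 5 lower and control 5 higher than the rest of their groups. FKBP51, a glucocorticoid-induced chaperone of the receptor, had 62.6, 89.3, 60.04, 46.9 and 66.7 FPKM in the deficient libraries, against 7.78, 31.5, 10.5, 26.6 and 80.5 FPKM in the control libraries. It was not called (log2 change 1.45, adjusted p = 0.053). Control 5 was the second highest of all 10 libraries, and without it FKBP51 was called at 1.9 (adjusted p = 0.0083). CEBPA and CEBPB fell without overlap: CEBPA averaged 10.5 ± 4.18 FPKM in deficient and 30.5 ± 6.73 FPKM in control libraries (log2 change -1.51, adjusted p = 0.00335) and CEBPB 16.1 ± 5.22 FPKM in deficient and 43.6 ± 8.52 FPKM in control libraries (log2 change -1.41, adjusted p = 0.00176). CEBPA is an adipocyte and myeloid factor, and CEBPB is strong in myeloid cells. Over the glucocorticoid and FOXO list 7 rose and 9 fell of 35 tested (4 and 14 without scaling). That is 20% and 25.7% with scaling, against 14.2% and 13.9% over all genes. The higher count of this list was 4 without control 1, 4 without control 2, 4 without control 4 and 4 without deficient 3. Of clock genes 4 rose and 1 fell of 16 tested (1 and 4 without scaling), or 25% and 6.25% with scaling. CRY1, a repressor of the clock, averaged 24.4 ± 3.03 FPKM in deficient and 17.2 ± 2.25 FPKM in control libraries (log2 change 0.48, adjusted p = 0.0106). REV-ERBB averaged 20.6 ± 2.74 FPKM in deficient and 13.7 ± 2.5 FPKM in control libraries (log2 change 0.56, adjusted p = 0.0124). The labels give no hour of sampling.

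Among chaperones 13 rose and 1 fell of 58 tested (3 and 12 without scaling). Shares with scaling were 22.4% and 1.72%, against 14.2% and 13.9% over all genes. HSPB3, a small heat shock protein of muscle (chrZ:16297321-16298153), had 66, 67.6, 71.3, 49.4 and 53.2 FPKM in the deficient libraries, against 19.9, 19.8, 30.1, 31.2 and 25.9 FPKM in the control libraries. The lowest deficient library was above the highest control (log2 change 1.25 ± 0.16 (SE), adjusted p = 0.00125). HSPA8, the constitutive HSP70, averaged 194 ± 69.3 FPKM in deficient and 247 ± 71.9 FPKM in control libraries (log2 change -0.38, adjusted p = 0.29, not called). The 1 chaperone that fell was DNAJB11, which works in the endoplasmic reticulum and was named after its value was seen. It averaged 12.4 ± 1.19 FPKM in deficient and 15.6 ± 1.09 FPKM in control libraries (log2 change -0.31, adjusted p = 0.0214), with adjusted p = 0.0557 without control 2 and 0.0557 without deficient 4. In the list of amino acid and endoplasmic reticulum stress 6 rose and 11 fell of 42 tested (2 and 22 without scaling). These are 14.3% and 26.2% with scaling. ATF4, the factor that translation arrest induces mostly at the protein level, averaged 323 ± 57.5 FPKM in deficient and 339.8 ± 47.3 FPKM in control libraries (log2 change -0.08, adjusted p = 0.711, not called). The higher count of chaperones was 7 without control 2 and 8 without deficient 4. That of the stress list was 3 without control 2, and its lower count was 7 without control 2.

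Of methionine use, creatine and transsulfuration genes 10 rose and 2 fell of 45 tested (1 and 9 without scaling), with a median log2 change of 0.192. Shares with scaling were 22.2% and 4.44%, against 14.2% and 13.9% over all genes. CTH, which makes cysteine, had 19.4, 25.6, 30.4, 23.8 and 19.1 FPKM in the deficient libraries, against 15.3, 16.5, 14.9, 16.1 and 17.3 FPKM in the control libraries. It rose without overlap, by a log2 change of 0.52, adjusted p = 0.0124. MSRB3, which reduces oxidised methionine in proteins, averaged 31.4 ± 2.23 FPKM in deficient and 22.3 ± 2.31 FPKM in control libraries (log2 change 0.48, adjusted p = 0.0048). SMS, spermine synthase, averaged 16.2 ± 1.13 FPKM in deficient and 12.3 ± 1.54 FPKM in control libraries (log2 change 0.38, adjusted p = 0.0155). SMOX, which oxidises spermine, had 2.68, 3.12, 2.72, 3.58 and 5.59 FPKM in the deficient libraries, against 6.48, 7.97, 7.09, 7.39 and 7.42 FPKM in the control libraries. Deficient values were all below control values (log2 change -0.9, adjusted p = 0.0026). AMD1, which makes the aminopropyl donor from S-adenosylmethionine, averaged 19.8 ± 3.24 FPKM in deficient and 23.6 ± 1.72 FPKM in control libraries (log2 change -0.25, adjusted p = 0.116). ODC1, which makes putrescine, averaged 19.5 ± 5.68 FPKM in deficient and 24.3 ± 4.82 FPKM in control libraries (log2 change -0.32, adjusted p = 0.204). Neither was called, and both were called lower without deficient 1, with adjusted p = 0.0436 for AMD1 and 0.0304 for ODC1. The higher count of the list was 6 without control 2, 6 without control 4, 6 without deficient 3 and 6 without deficient 4. Its lower count was 1 without control 2 and 4 without deficient 1.

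Of amino acid transporters 5 rose and 9 fell of 21 tested (3 and 11 without scaling). SLC6A6, the taurine transporter, had 3.36, 5.09, 3.89, 5.99 and 7.97 FPKM in the deficient libraries, against 11.3, 14, 8.49, 12.3 and 11.6 FPKM in the control libraries. It fell without overlap (log2 change -1.03, adjusted p = 0.00421). SLC7A2, a carrier of cationic amino acids, averaged 7.2 ± 1.15 FPKM in deficient and 3.26 ± 0.757 FPKM in control libraries without overlap (log2 change 0.95, adjusted p = 0.00162). SLC43A2, which carries methionine and other large neutral amino acids, had 18.3, 23.4, 38.1, 29.3 and 44.9 FPKM in the deficient libraries, against 10.4, 16.1, 10.4, 13.9 and 18.5 FPKM in the control libraries. It rose (log2 change 1.06, adjusted p = 0.00992), with deficient 1 inside the control range. The higher count was 3 without control 2. In the list of amino acid breakdown and glutamine 18 rose and 3 fell of 37 tested (8 and 5 without scaling) (median 0.292). This list also holds enzymes that make amino acids, with GLUL among the 18 and ASS1 among the 3. BCKDHB, a subunit of the branched-chain keto acid dehydrogenase, had 16, 15, 21.4, 14.4 and 13 FPKM in the deficient libraries, against 8.68, 6.69, 7.69, 7.08 and 9.21 FPKM in the control libraries. The diets did not overlap (log2 change 0.93, adjusted p = 0.00162). AASS, the first step of lysine breakdown, averaged 18.4 ± 5.9 FPKM in deficient and 8.78 ± 1.22 FPKM in control libraries (log2 change 0.95, adjusted p = 0.00451). GLUL, glutamine synthetase, averaged 127 ± 40.2 FPKM in deficient and 39.1 ± 11.8 FPKM in control libraries (log2 change 1.65, adjusted p = 0.0027). ASS1, which takes up citrulline for arginine, averaged 16.3 ± 3.88 FPKM in deficient and 34.4 ± 5.08 FPKM in control libraries and fell (log2 change -1.04, adjusted p = 0.00175). The count of 3 lower genes was 1 without control 1, 1 without control 2, 1 without control 4, 1 without control 5, 1 without deficient 3 and 1 without deficient 5.

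Among glutathione and antioxidant genes 6 rose and 13 fell of 52 tested (3 and 23 without scaling), and the mitochondrial enzymes named here were among those that rose. That is 11.5% and 25% with scaling, against 14.2% and 13.9% over all genes. PRDX3, the peroxiredoxin of mitochondria, averaged 173 ± 35 FPKM in deficient and 99.2 ± 14 FPKM in control libraries (log2 change 0.79, adjusted p = 0.00514), and SOD2, the mitochondrial superoxide dismutase, 191 ± 39 FPKM in deficient and 118 ± 9.51 FPKM in control libraries (log2 change 0.66, adjusted p = 0.00701). SEPP1, the selenium carrier selenoprotein P, had 142, 176, 134, 157 and 255 FPKM in the deficient libraries, against 401, 458, 355, 444 and 344 FPKM in the control libraries. The gene fell without overlap (log2 change -1.24 ± 0.17 (SE), adjusted p = 0.00157). HMOX1, haem oxygenase and a strong macrophage gene, averaged 13.7 ± 4.89 FPKM in deficient and 30.9 ± 10.4 FPKM in control libraries (log2 change -1.12, adjusted p = 0.0103). The symbol GSTA3, an alpha-class glutathione transferase, stands for neighbouring gene models that moved apart. The model at chr3:87798976-87804665 had 5.68, 5.08, 4.23, 6.72 and 14.4 FPKM in the deficient libraries, against 34, 25.9, 32.7, 30.7 and 20.6 FPKM in the control libraries. Deficient values were all below control values (log2 change -1.95, adjusted p = 0.00137). The model at chr3:87785841-87793876, named after its values were seen, had 2.74, 3.1, 6.14, 2.97 and 3.93 FPKM in the deficient libraries, against 0.902, 1.19, 1.49, 1.96 and 1.42 FPKM in the control libraries. It rose without overlap (log2 change 0.97, adjusted p = 0.00441). Close copies may share reads, so the split between them is uncertain.

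Few lipid synthesis genes were called. Of fatty acid and sterol synthesis genes 2 rose and 3 fell of 47 tested (1 and 9 without scaling). SC5D, a late step of cholesterol synthesis, averaged 24.9 ± 5.7 FPKM in deficient and 15 ± 2.57 FPKM in control libraries (log2 change 0.68, adjusted p = 0.0149), and ELOVL5, which lengthens polyunsaturated fatty acids, 22.9 ± 1.94 FPKM in deficient and 29 ± 2.07 FPKM in control libraries (log2 change -0.33, adjusted p = 0.0167). SCD, the stearoyl-CoA desaturase, ranged over 1.21 to 16.9 FPKM in deficient and 3.93 to 12.9 FPKM in control libraries (log2 change -0.48, adjusted p = 0.49, not called). FABP4, a fatty acid binding protein of adipocytes, averaged 248 ± 83.7 FPKM in deficient and 368 ± 160.3 FPKM in control libraries (log2 change -0.52, adjusted p = 0.235, not called). The adipocyte markers summed to 231.7 to 487.2 FPKM in deficient and 307.3 to 775.2 FPKM in control libraries. Among vessel and hypoxia genes, HIF1A, the oxygen-regulated factor, had 7.73, 6.38, 4.36, 6.19 and 8.71 FPKM in the deficient libraries, against 11.9, 13.2, 9.9, 10.7 and 9.5 FPKM in the control libraries. It fell without overlap (log2 change -0.67, adjusted p = 0.0103).

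Counts of the lists not yet described follow. Shares with scaling, higher and lower, were 28% and 12% for costameres and 54.5% and 9.09% for gluconeogenic steps. They were 57.1% and 4.76% for the citric acid cycle and 21.9% and 9.38% for energy-sensing regulators. Vessel and hypoxia genes had 11.1% and 8.33%, immediate early and cytokine genes 2.5% and 52.5%, and cell cycle genes 2.56% and 10.3%. Over all genes the shares were 14.2% and 13.9%. Of costamere and dystrophin complex genes 7 rose and 3 fell of 25 tested (1 and 5 without scaling), with higher counts of 3 without control 2, 3 without control 4, 3 without deficient 3 and 4 without deficient 4. Of gluconeogenic steps 6 rose and 1 fell of 11 tested, FBP2 among them. Of citric acid cycle enzymes 12 rose and 1 fell of 21 tested (4 and 1 without scaling), and of PGC-1 and energy-sensing regulators 7 rose and 3 fell of 32 tested (2 and 4 without scaling), with higher counts of the regulators of 13 without deficient 5. Of vessel and hypoxia genes 4 rose and 3 fell of 36 tested (0 and 7 without scaling), with higher counts of 0 without control 2, 1 without control 4, 2 without control 5, 2 without deficient 1, 1 without deficient 2 and 0 without deficient 4. Of immediate early and cytokine genes 1 rose and 21 fell of 40 tested (0 and 28 without scaling). Of cell cycle genes 1 rose and 4 fell of 39 tested (0 and 18 without scaling), with lower counts of 2 without control 1, 1 without control 2, 2 without control 4, 2 without control 5, 13 without deficient 1, 1 without deficient 3, 1 without deficient 4 and 2 without deficient 5.

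Leukocyte genes fell almost throughout. Of 30 genes for leukocyte receptor signalling, 26 fell and 0 rose, and in 24 the diets did not overlap. That is 86.7% lower, against 13.9% of all genes and 16.3% of those at 1 to 3 FPKM. Over all genes 9.46% lay lower without overlap. The median log2 change of the 30 was -0.985. NCKAP1L, a haematopoietic regulator of actin, had 2.89, 2.32, 2.44, 2.15 and 3.39 FPKM in the deficient libraries, against 6.54, 8.59, 8.39, 6.9 and 6.89 FPKM in the control libraries. The diets were far apart (log2 change -1.22 ± 0.11 (SE), adjusted p = 0.000403). LCP1, the leukocyte plastin, had 10.9, 11.6, 12.6, 12.1 and 15.2 FPKM in the deficient libraries, against 26.7, 30.9, 25.7, 24.8 and 27.5 FPKM in the control libraries. It fell by a log2 change of -1.06, adjusted p = 0.000403. PTPRC, the leukocyte antigen CD45, averaged 4.11 ± 1.48 FPKM in deficient and 10.4 ± 1.54 FPKM in control libraries (log2 change -1.19, adjusted p = 0.00176), and the kinase SYK 0.91 ± 0.377 FPKM in deficient and 2.74 ± 0.317 FPKM in control libraries (log2 change -0.99, adjusted p = 0.00157). RAC2, a GTPase of blood cells, averaged 19.9 ± 5.99 FPKM in deficient and 39.6 ± 5.11 FPKM in control libraries (log2 change -0.99, adjusted p = 0.00346). In this list too deficient 5 lay nearest to the controls, at a median of -0.532 against -1.161 to -1.037 in the other deficient libraries. SOCS3, a cytokine-induced inhibitor, had 5.54, 5.83, 1.47, 1.53 and 5.45 FPKM in the deficient libraries, against 13.7, 22.1, 11, 17.6 and 23.5 FPKM in the control libraries. It fell without overlap (log2 change -2.002, adjusted p = 0.00297).

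In the matrix list 2 rose and 23 fell of 69 tested (0 and 38 without scaling), with log2 changes between -3.93 and 0.59. SPP1, osteopontin, which macrophages and regenerating muscle secrete, had 5.4, 9.97, 5.55, 1.89 and 52.8 FPKM in the deficient libraries, against 138, 207, 88.1, 174 and 129.7 FPKM in the control libraries. All deficient libraries were below all controls (log2 change -3.93, adjusted p = 0.00233), and without deficient 5 the change was -4.56. TNC, tenascin C, averaged 6.46 ± 3.36 FPKM in deficient and 18.4 ± 3.85 FPKM in control libraries (log2 change -1.45, adjusted p = 0.00386), with deficient 1 inside the control range. The 2 that rose were COL15A1 and LAMA2, parts of the basement membrane around fibres, with COL15A1 at 18.9 ± 3.93 FPKM in deficient and 12.2 ± 2.25 FPKM in control libraries (log2 change 0.59, adjusted p = 0.0199). LAMA2 averaged 10.3 ± 1.51 FPKM in deficient and 7.63 ± 1.21 FPKM in control libraries (log2 change 0.39, adjusted p = 0.0384), and lost its call without control 1, control 2, control 4, deficient 2, deficient 4 and deficient 5 (adjusted p 0.0658 to 0.0923). Both were named after their values were seen, and the count of 2 was 1 without control 1, 1 without control 2, 1 without control 4, 5 without control 5, 1 without deficient 2, 1 without deficient 4 and 1 without deficient 5.

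Transcript usage within genes showed no called change. Of 219 genes with several transcripts whose shares could be tested in limma, 0 (0%) were called, and 36 had an unadjusted p under 0.05. In 8 of 272 transcripts (2.94%) the diets did not overlap. The smallest adjusted p was 0.067, shared by 4 genes. CAPZB, the capping protein beta subunit that ends thin filaments at the Z-disc, led them. Its transcript of 1455 nt held 84.8, 89.4, 92.3, 87.2 and 86.3% in the deficient libraries, against 78.8, 68.1, 80.3, 70.8 and 76.5% in the control libraries. The share was higher by 13.1 ± 2.58 (SE) percentage points, and the libraries did not overlap. At the level of transcripts, the 1455 nt form averaged 193 ± 37.7 FPKM in deficient and 130.4 ± 20.3 FPKM in control libraries (log2 change 0.56, adjusted p = 0.021). The 1342 nt form averaged 25.5 ± 3.22 FPKM in deficient and 43.0 ± 6.28 FPKM in control libraries (log2 change -0.73, adjusted p = 0.00309). For RTN4, a reticulon of the endoplasmic reticulum, the 2710 nt transcript held 72.6% ± 1.75 in deficient and 66% ± 2.52 in control libraries. For CSNK1A1, a casein kinase, the 1011 nt transcript held 59.8% ± 4.46 in deficient and 71% ± 2.98 in control libraries. For FASN, fatty acid synthase, the 8762 nt transcript held 78.7% ± 6.01 in deficient and 63.7% ± 3.91 in control libraries. These shares rest on the authors' assignment of fragments to overlapping transcripts. With log2 differences between transcripts in place of shares 10 genes were called, and leaving out control 3 gave 3 and leaving out deficient 5 gave 1.

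The breast response differed from that of liver in 843 of 9142 genes (9.22%), with 364 more positive in breast (3.98%) and 479 more negative (5.24%). In liver itself limma called 0 of 10185 genes (0%), and the largest liver changes below did not pass its test. The fit took breast and liver libraries as separate birds, which the labels do not settle. The liver libraries were less even. Mitochondrial genes held 36.1% of FPKM in liver deficient 1 and 63.1% in liver control 4, against 14.3% to 22.1% in the other livers. The tissue difference gave 721 genes without liver deficient 1 and 657 without liver control 4. Of 60 genes named in this text with a called difference, 51 were called without the first of these livers and 51 without the second. The count was 456 without control 2, 557 without control 4, 552 without deficient 3 and 518 without deficient 4 of the breast libraries.

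The most positive differences among the named genes were those of FST, LPIN1, PDK4 and RHOBTB3. FST averaged 8.08 ± 3.4 FPKM in deficient and 5.24 ± 1.7 FPKM in control libraries of breast, as above, and 6.5 ± 3.61 FPKM in deficient and 35.4 ± 27 FPKM in control livers. The difference in log2 change, breast minus liver, was 2.59 ± 0.604 (SE), adjusted p = 0.0132. PDK4 averaged 78.7 ± 27.9 FPKM in deficient and 197 ± 81.6 FPKM in control livers (difference 2.19 ± 0.48 (SE), adjusted p = 0.00995). LPIN1, which makes diacylglycerol and coactivates fat oxidation genes, averaged 7.07 ± 1.55 FPKM in deficient and 4.3 ± 1.72 FPKM in control libraries of breast (log2 change 0.64, adjusted p = 0.0345). That breast call was lost without control 1, control 2, control 3, control 4, deficient 2, deficient 3 and deficient 4 (adjusted p 0.0585 to 0.0857). In liver LPIN1 averaged 13.8 ± 8.42 FPKM in deficient and 57.4 ± 34.3 FPKM in control livers, a difference of 2.58 ± 0.53 (SE), adjusted p = 0.00691. RHOBTB3 (chrZ:57184772-57211538), had 3.44, 2.86, 5.08, 5.14 and 3.7 FPKM in the deficient libraries, against 0.516, 0.272, 0.892, 0.946 and 0.778 FPKM in the control libraries of breast. Its diets did not overlap there (log2 change 1.58 ± 0.16 (SE), adjusted p = 0.000715), and the tissue difference was 2.19 ± 0.33 (SE), adjusted p = 0.00136. UBB and SESN1 differed by 2.07 and 1.98 on the log2 scale. DNAJA4, a cochaperone, averaged 24.6 ± 7.03 FPKM in deficient and 28.2 ± 15.5 FPKM in control libraries of breast (log2 change -0.11, adjusted p = 0.797, not called). In liver DNAJA4 averaged 19.6 ± 5.35 FPKM in deficient and 96.6 ± 54.3 FPKM in control livers, and the difference was 2.01 ± 0.45 (SE), adjusted p = 0.0112.

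Negative differences were led by G0S2, SPP1, TTR and SOCS3 among genes of this text. G0S2, an inhibitor of the fat lipase, averaged 55 ± 10.7 FPKM in deficient and 89.7 ± 31.5 FPKM in control libraries of breast (log2 change -0.64, adjusted p = 0.075, not called), and was called with adjusted p = 0.0152 without control 3. In liver G0S2 averaged 166 ± 129 FPKM in deficient and 21.4 ± 25.4 FPKM in control livers. The difference was -3.46 ± 0.93 (SE), adjusted p = 0.0266, and it was not called without control 2 of breast or liver control 2, with adjusted p up to 0.0562. TTR, transthyretin, a carrier of thyroid hormone made mostly by liver, averaged 6.56 ± 7.1 FPKM in deficient and 55.5 ± 18.9 FPKM in control libraries of breast and 8874 ± 2584 FPKM in deficient and 7723 ± 2105 FPKM in control livers. The difference was -3.41 ± 0.55 (SE), adjusted p = 0.00184. SOCS3 averaged 18.6 ± 10.2 FPKM in deficient and 8.58 ± 4.49 FPKM in control livers, a difference of -2.91 ± 0.69 (SE), adjusted p = 0.0138. GHR differed in the positive direction (0.99 ± 0.24 (SE), adjusted p = 0.0149), at 124 ± 27.9 FPKM in deficient and 162 ± 21.2 FPKM in control livers.

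**Figure D5:**
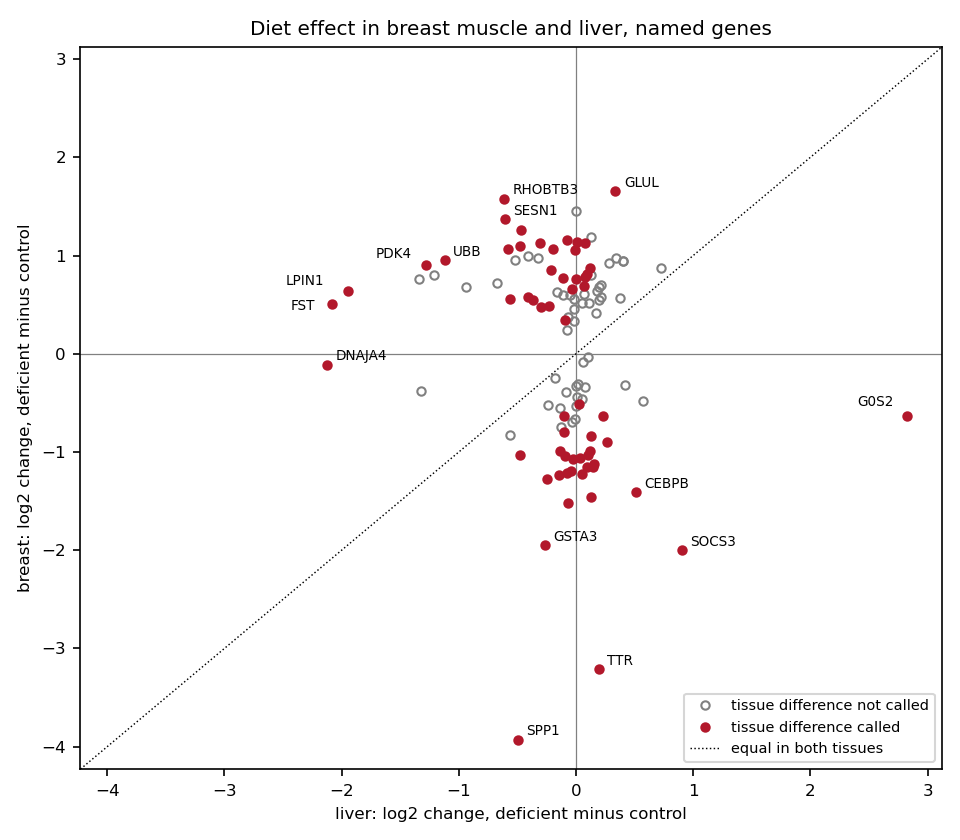
Log2 change, deficient minus control, of the genes named in the text in breast (vertical) and liver (horizontal), with the tissue difference called (filled red) or not (open grey) and a dotted line of equal change. RHOBTB3 and SESN1 lie at 1.58 and 1.37 in breast with liver changes of -0.61 each, and SPP1 and TTR lie at -3.93 and -3.21 in breast with liver changes between -0.50 and 0.19.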

How the data were processed

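Gene and transcript abundances were deposited by the authors as FPKM of galGal4 with a status and a coverage per feature, per the file headers. The submitters' processing notes name, with no roles, Cufflinks 2.1.1 and Cuffdiff 2.1.1 beside TopHat2 2.0.9 and Bowtie 1.0.0. Per the labels' protocols, tissue was snap-frozen and 1 ug of total RNA was made into libraries with Illumina TruSeq kits. The deposited coverage served only to gauge relative depth, which no read count gives.

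Genes whose estimate failed in any of the 10 breast libraries were left out, among them GAPDH, ACTA1 and ACTN1. FPKM were scaled by median ratios within a tissue, genes averaging 1 scaled FPKM or more were kept (6932 fell below), and log2(FPKM + 1) was fitted by diet in limma 3.58.1 (R 4.3.3) with a mean-variance trend and Benjamini-Hochberg adjustment. Transcript shares, in percent of a gene's summed FPKM, were fitted for genes with a sum of at least 5 FPKM and 2 transcripts over a 5% share. The tissue difference is the interaction of diet and tissue over 20 libraries, each tissue scaled on its own. The fits were also run on simulated data with independent noise and few changed genes. Those data held no shift of many genes together, so they do not check how calls here depend on scaling. The p-values set a difference between groups against the spread of these libraries within groups, as moderated in limma.

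The 44 gene lists and 13 marker lists, and the choice of genes, were made with earlier results of these data known. Of 1854 list entries 1585 were found and 1456 tested. Genes could be named where they were marked in a list, were markers or were among the 6 smallest p of a list. So could those with the 12 largest rises or falls, the 8 smallest share p or the 6 largest tissue differences of each sign. Not every gene that met this rule was named. Gene symbols are those of the files, with synonyms from RefSeq. Same-number breast libraries of both diets did not deviate together (correlations -0.0671 to 0.0909, 0 pairs over 0.1), so the breast fits are unpaired. That check does not reach pairs of a breast and a liver library. The tissue difference treats its 20 libraries as separate birds, and its p-values do not allow for birds shared between tissues. Alternatives were the scaling, pseudocount, filter, variance model, replicate block and leaving out each library. Some results are not reported here. Counts over lists under these settings were chosen after seeing the data.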

Additional observations from a re-analysis of the deposited data

Results flagged for a closer look

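In 18 of 292 groups of 5 breast libraries (6.16%), 1 library stood apart from the other 4 of its diet by Dixon's test, where chance gives about 1 group in 20. The genes examined are those named in the report. Deficient libraries stood apart on the high side for ALDOC (deficient 5, 63.1 FPKM), FBP1 (deficient 5, 5.54 FPKM), SLC25A6 on chromosome 1 (deficient 5, 135 FPKM), MYL2 (deficient 5, 8.65 FPKM) and MYF6 (deficient 3, 43.4 FPKM). On the low side they did so for CKB (deficient 4, 16.7 FPKM), TFAM (deficient 2, 16 FPKM) and RYR3 (deficient 5, 14.1 FPKM). Control libraries stood apart on the high side for CSRP3 (control 4, 32.5 FPKM), NCAM1 (control 2, 24.3 FPKM), PSAP (control 2, 292 FPKM), AASS (control 5, 10.9 FPKM), SYK (control 2, 3.3 FPKM) and DNAJA4 (control 5, 55.8 FPKM), and on the low side for EIF2S2 (control 2, 50.4 FPKM), CEBPB (control 3, 29.4 FPKM), ASS1 (control 1, 25.8 FPKM) and TNC (control 1, 11.6 FPKM). Deficient 5 accounts for 5 of these 18 and control 2 for 4.

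The diet effect in breast differed from that in liver, by the interaction in limma, for 60 of the 112 named genes tested over both tissues. Over all genes tested the share was 9.22%. Large tissue differences and small p in breast were among the grounds for naming genes, so the count of 60 does not measure how common such differences are. The filter on low values applied to each tissue. MYL1, TNNC2 and TNNT3 met it in liver through control livers whose SD exceeded their mean, and their tissue difference was not called. They were tested in 19 of the 20 fits that each left out 1 library. AK1, with a called difference, averaged 2.93 ± 0.85 FPKM in deficient and 6.15 ± 6.15 FPKM in control livers. Its difference was not called in 14 of those 20 fits. The SE and adjusted p of the largest differences stand in the report. As breast minus liver on the log2 scale, the 31 positive differences were 2.59 for FST, 2.58 for LPIN1, 2.19 for PDK4, 2.19 for RHOBTB3, 2.07 for UBB, 2.01 for DNAJA4, 1.98 for SESN1, 1.73 for SLC25A33, 1.64 for AK1, 1.57 for FBXO32, 1.44 for PKM, 1.32 for GLUL, 1.26 for SLC43A2, 1.23 for SLC25A4, 1.13 for PFKM, 1.12 for EEF2K, 1.07 for ADSSL1, 1.07 for PDP1, 1.05 for SLC25A12, 0.99 for GHR, 0.91 for PDK3, 0.88 for GRB10, 0.78 for MSRB3, 0.76 for PABPC4, 0.75 for MRPS31, 0.72 for DLD, 0.71 for PRDX3, 0.71 for CRY1, 0.7 for SOD2, 0.62 for HSPA9 and 0.43 for RPTOR. The 29 negative ones were -3.46 for G0S2, -3.43 for SPP1, -3.41 for TTR, -2.91 for SOCS3, -1.92 for CEBPB, -1.68 for GSTA3, -1.59 for TNC, -1.45 for CEBPA, -1.3 for RUNX1, -1.28 for NCKAP1L, -1.27 for HMOX1, -1.25 for IGFBP4, -1.17 for SMOX, -1.15 for PTPRC, -1.14 for CTSK, -1.14 for SLC6A6, -1.11 for RAC2, -1.1 for LCP1, -1.09 for SEPP1, -1.05 for SESN3, -1.03 for ALDOC, -0.96 for FBP1, -0.95 for ASS1, -0.86 for COX8A, -0.85 for SYK, -0.69 for TGFBR2, -0.56 for CASP18, -0.54 for PSAP and -0.53 for CBLB. For GSTA3 this is the model that fell in breast. Of the 60 differences, 41 were called without each of the 20 libraries in turn, and 0 turned their sign.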

How the results depend on the processing

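Called genes numbered 2854, with 1441 higher and 1413 lower. Without scaling these were 322 higher and 3200 lower (9.14% higher, against 50.5%), and at a filter of 5 FPKM 766 were lower (63.1% higher). Leaving out 1 library gave 1835 to 3158 calls in all, 842 to 1666 higher and 993 to 1492 lower, fewest without control 2 and most in all without deficient 5, and 1809 to 3173 called transcripts. With the replicate block 2076 genes were called, 2002 of them shared with the unblocked fit; 2 of 5 deficient libraries correlated best with their own number. Genes with a called transcript share were 0, 10 with log2 differences between transcripts, 3 at a sum of at least 20 FPKM, 1 with the replicate block and 0 to 3 without 1 library. Tissue differences, 843, were 1871 without scaling, 555 at 5 FPKM, 552 with the replicate block and 456 to 1133 without 1 library. The sign of GDF8 turned: -0.28 without scaling, -0.0016 with upper-quartile scaling, -0.061 with quantile normalization and -0.12 to 0.16 without 1 library. That of DNAJA4 ran between -0.23 and 0.16 without 1 library. Of 123 named called genes, 112 kept the call without each library in turn, but small p was among the grounds for naming them. Of all 2854 calls, leaving out 1 library kept between 63.8% (without control 2) and 92.3% (without deficient 5). Quantile normalization ended 6 calls (LDHA, TNNC2, TNNT3, TNNC1, CASQ2 and BECN1), the missing filter 7 (LDHA, MYL1, TNNT3, TNNC1, TNNI1, LAMA2 and LPIN1), and the block 9 (FBP1, SLC25A6 on chromosome 1, TNNC1, TNNI1, CASQ2, DNAJB11, COL15A1, LAMA2 and LPIN1). Upper-quartile scaling ended the call of LAMA2 and robust moderation that of TNNI1. Calls were gained by LDHB, AMD1 and G0S2 with quantile normalization, by PDK4, EIF4EBP1 and ADSL with the block, by FKBP51, EIF4EBP1 and ADSL at 5 FPKM, by EIF4EBP1 and ADSL without the variance trend, by FKBP51 and ADSL without genes under 200 nt, and by ADSL with a pseudocount of 0.1 and with robust moderation. The sign of AMPD3 was also turned without scaling, at -0.069. The causes were not tested, and read depth is unknown.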
